A study of Mus musculus with 2 samples.

Results

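The fibroblast growth factor (FGF) signalling genes described here were the FGF ligands, the FGF receptors, and the Sprouty and Spred inhibitors that dampen the signal. The rule takes them by gene symbol and uses no measured value, though the family was picked with earlier results of these data known. On the mouse array the choice took in 33 of 27579 genes with a usable measurement, read by 60 of 41174 probes. These were 21 ligands, 5 receptors, 4 Sproutys and 3 Spreds. Fgf4 was not analysed here.

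The study hybridised RNA from embryonic fibroblasts (MEFs, connective tissue cells cultured from mouse embryos) of C57BL/6J mice. One RNA came from LATS2-/- cells (labelled KO), which lack a kinase of the Hippo growth-control pathway, and the other from LATS2+/+ cells (labelled WT), both untreated. RNA of both genotypes was put on each of 2 arrays, with the KO RNA in the red dye Cy5 on the first array and in the green dye Cy3 on the second. The labels name no separate cultures, embryos or embryonic ages, so the arrays counted as 1 replicate of each genotype and allowed no test between genotypes. The labels do not say whether both arrays carried the same RNA preparations. If they did, the spread between the arrays measured hybridisation and dye error only. That spread is called the hybridisation error below.

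The Lats2 probes did not all follow the labels. Of 4 Lats2 probes, 3 gave more signal on both arrays in the RNA labelled KO, and the brightest had a mean log2 ratio of 0.56. These 3 lie close together, at chr14:56644080-56644139, chr14:56644108-56644167 and chr14:56645246-56645305, and the first and second overlap. They are thus not readings of 3 separate regions. The other probe, which lies apart at chr14:56676512-56676571, gave less signal, with a mean log2 ratio of -0.35. Whether any of these probes lies in the deleted part of the gene was not analysed here, so they did not settle which RNA is which. Every direction given here is therefore between RNAs as labelled. By the scanner software's flag, 9 of 9 measured fibroblast markers were well above background. Of 27 measured markers of endothelial, blood, epithelial, muscle and neural cells, 8 were above background, and the mean log2 ratios of these 8 lay between -0.11 and 0.26. The muscle marker Acta1 was bright, at 11377 and 11459 in the RNA labelled KO and 9459 and 9561 in that labelled WT. The neural marker Tubb3 read 1040 and 996 against 1077 and 1121. The others, Cd68, Csf1r, Hbb-b1, Krt5, Krt14 and Sox10, were dim, at 107 or less. In a bulk RNA, fewer cells of a type and less RNA per cell cannot be told apart. Of the fibroblast markers, 7 of 9 had a negative mean log2 ratio, with a median of -0.41 over the list. The values ran from -0.89 for Vim (vimentin) to 0.89 for Fn1 (fibronectin), and the part of such shifts in the results below was not tested. The Vim probe was dim, at 74.8 and 79.2 in the RNA labelled KO and 130 and 156 in that labelled WT. In the RNA labelled KO it was well above background on 1 array only, so its ratio is a weak measure of vimentin.

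FGF ligands are secreted proteins that bind receptor tyrosine kinases together with heparan sulfate chains at the cell surface. The receptors pass the signal through the adaptor Frs2 and the Ras, Raf and MEK proteins to the kinase ERK, which drives growth and the transcription of early response genes. Sprouty and Spred proteins are made in response to the signal and hold it back between the receptor and Raf, and the phosphatase Dusp6 removes the activating phosphates from ERK. Fibroblasts make several FGF ligands for neighbouring epithelium, and the Fgf11 group stays inside the cell and does not signal through these receptors in the usual way.

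A gene was called when its log2 ratio of KO over WT reached 1 in size on each array with the same sign, and its probe was well above background on both arrays in the RNA with more signal. Only 1 of the 33 genes met this, the ligand Fgf18, which was lower in the RNA labelled KO. No member was called higher by this rule. Over all genes the same rule called 1.5% lower and 1.7% higher, so that the single call among 33 genes was near the background. The genes nearest to the threshold were Fgf5 and Fgf7, lower in the RNA labelled KO, and Spry1 and Fgfrl1, higher in it. A smaller threshold of 0.5 on the log2 scale on each array, chosen after the values were seen, took in these 5 genes by their brightest probes. Counting every probe, it took in 6, the other being Fgf11, whose probes were about equally bright. By the brightest probes that was 3 genes lower and 2 higher, where all genes gave 5.26% lower and 5.16% higher.

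The stretch of 250 bases upstream of the transcription start of these 5 genes is shown because it is the sequence in which shared short motifs could be looked for among the members that differed most. The sequences are RefSeq's on build GRCm38.p6, which held an entry for 24 of the 33 genes, and each reads 5′ to 3′ on the gene's own strand. Capitals mark a match to GGAATG (the core bound by TEAD factors, the partners of the Hippo effectors YAP and TAZ), CCGGAA (a core bound by ETS factors) or TGANTCA (the AP-1 motif), each searched on both strands. The windows lie at chr11:33147401-33147650 on the minus strand for Fgf18, and on the plus strand at chr5:98253934-98254183 for Fgf5, chr2:126034408-126034657 for Fgf7, chr3:37639697-37639946 for Spry1 and chr5:108693979-108694228 for Fgfrl1.
Fgf18: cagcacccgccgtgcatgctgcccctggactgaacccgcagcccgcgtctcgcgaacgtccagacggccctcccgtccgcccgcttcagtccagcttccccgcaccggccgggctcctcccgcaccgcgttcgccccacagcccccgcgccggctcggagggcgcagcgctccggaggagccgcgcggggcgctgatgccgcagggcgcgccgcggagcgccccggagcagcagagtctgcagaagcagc
Fgf5: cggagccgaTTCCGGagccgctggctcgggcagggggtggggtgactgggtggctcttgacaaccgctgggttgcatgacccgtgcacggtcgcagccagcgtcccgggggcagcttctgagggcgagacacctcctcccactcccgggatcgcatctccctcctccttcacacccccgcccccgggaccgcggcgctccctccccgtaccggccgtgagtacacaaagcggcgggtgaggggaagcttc
Fgf7: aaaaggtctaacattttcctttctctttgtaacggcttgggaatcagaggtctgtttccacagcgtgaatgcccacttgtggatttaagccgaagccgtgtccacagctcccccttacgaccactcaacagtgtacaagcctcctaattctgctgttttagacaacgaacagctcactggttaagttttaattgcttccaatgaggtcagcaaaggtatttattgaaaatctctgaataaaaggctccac
Spry1: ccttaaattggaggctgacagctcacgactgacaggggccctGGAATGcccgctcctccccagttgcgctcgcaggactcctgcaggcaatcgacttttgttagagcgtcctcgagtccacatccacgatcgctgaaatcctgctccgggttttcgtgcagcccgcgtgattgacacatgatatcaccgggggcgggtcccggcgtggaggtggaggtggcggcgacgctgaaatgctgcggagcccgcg
Fgfrl1: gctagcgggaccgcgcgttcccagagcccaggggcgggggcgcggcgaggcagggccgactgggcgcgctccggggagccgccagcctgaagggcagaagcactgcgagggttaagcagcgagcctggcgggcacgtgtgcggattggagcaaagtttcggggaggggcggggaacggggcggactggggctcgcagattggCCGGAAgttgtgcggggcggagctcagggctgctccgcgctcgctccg

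The window of Spry1 held the TEAD core once, those of Fgf5 and Fgfrl1 held the ETS core once each, and those of Fgf18 and Fgf7 held none of these letters. The windows were rich in G and C for Fgf18 (77.2%), Fgfrl1 (73.6%) and Fgf5 (70.8%), and not for Fgf7 (43.6%). Over 32851 such windows of the RefSeq table, chromosome 18 left out, 12.6% held the TEAD core, 12.0% the ETS core and 6.75% the AP-1 motif. The 24 member genes with an entry used had 31 windows, of which 4 held the TEAD core, 4 the ETS core and 2 the AP-1 motif. The TEAD core was in windows of Fgf3, Fgf11, Fgf12 and Spry1. The ETS core was in those of Fgf5, Fgf12, Fgfr4 and Fgfrl1, and the AP-1 motif in those of Fgf12 and Fgf13. With so few genes and matches, whether the motifs separate the higher from the lower genes could not be judged. A match of this length is a description of the letters and not a measured binding site.

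Among the ligands, 7 of 21 were well above background, and Fgf18 differed most. Fgf18 acts on the growth of cartilage, bone and lung. Its probe, at chr11:33017441-33017500 on build mm8, read 433 in the RNA labelled KO on the first array and 1259 in that labelled WT, in normalised intensity units that include an offset of 50. On the second array it read 475 and 1292. Both KO values were far below both WT values, whichever dye the RNA carried. Values that do not overlap were also seen in Fgf10, which differed little, and their share over all genes was not analysed here. The log2 ratios were -1.54 and -1.44, with a mean of -1.49 ± 0.07 (SD between the arrays), or 2.81-fold lower in the RNA labelled KO. The arrays differed from each other with an SD of 0.13 for a single probe over all probes, so that the difference was many times the hybridisation error.

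Fgf5, a ligand known for ending the growth phase of hair, was also lower in the RNA labelled KO. Its intensity was 113 against 219 on the first array and 118 against 272 on the second, the RNA labelled KO being named first. The log2 ratios of -0.96 and -1.21 lay on either side of the threshold, with a mean of -1.08 ± 0.18 (SD between the arrays), 2.12-fold lower. Fgf5 therefore missed the call through the first array alone. Other ways of treating the background moved it past the threshold: its mean log2 ratio was -1.49 with a normexp offset of 10 and -2.01 in the ratios of the scanner software. Its probe, at chr5:98517263-98517322, was dim, and the offset pulls dim probes towards 0.

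Fgf7, the keratinocyte growth factor that fibroblasts make for epithelial cells, followed the same direction with a smaller difference. It read 113 against 207 on the first array and 131 against 206 on the second, again with the RNA labelled KO first. The log2 ratios were -0.88 and -0.66, with a mean of -0.77 ± 0.16 (SD between the arrays), which is 58.7% of the WT level. Like Fgf5 it was dim, and in the scanner software's ratios its mean was -1.50 and it was called. Its probe lies at chr2:125780852-125780911.

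Fgf10, the closest relative of Fgf7 and a mesenchymal signal for limb and lung buds, was brightly labelled and differed little. The RNA labelled KO read 1425 and 1219 and the RNA labelled WT 1515 and 1537. The log2 ratios were -0.09 and -0.33. The probe of Fgf10 was spotted repeatedly, and the SD of its log2 ratio over the spots was 0.029 on the first array and 0.026 on the second. The gap between the arrays for Fgf10 was thus wider than the gap between spots of one array. Fgf7 and Fgf10, which act on the same receptor form, therefore did not show differences of like size, although no test of that gap was possible with 1 replicate.

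**Figure D1:**
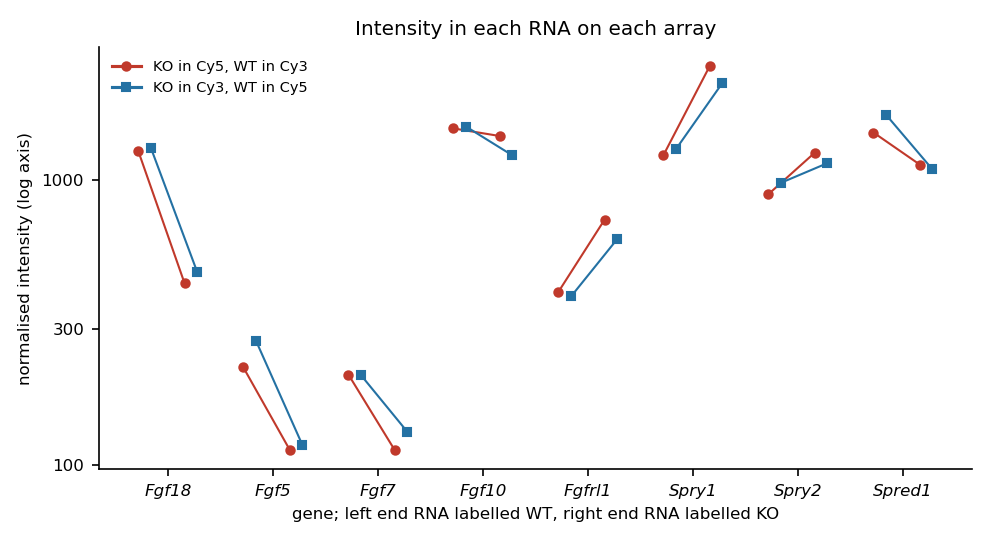
Normalised intensity on a log axis of 8 members in the RNA labelled WT (left end of each line) and the RNA labelled KO (right end), with circles for the array with KO in Cy5 and squares for the dye-swapped array. Fgf18, Fgf5 and Fgf7 slope down and Spry1 and Fgfrl1 slope up on both arrays, while Fgf10 is nearly level.

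The other ligands above background were dim and gave ratios near 0. Fgf2, the basic fibroblast growth factor, had log2 ratios of -0.07 and -0.06 from a repeatedly spotted probe, and its other probe gave a mean of 0.05. Fgf8, an embryonic organiser signal, had -0.16 and 0.12, so that the sign followed the dye. Of the 7 ligands above background, 5 had a negative ratio on both arrays, and the exceptions were Fgf8 and Fgf11. The 5 included Fgf2 and Fgf10, which differed little, and the share of all genes with such signs was not analysed here.

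Fgf11 belongs to the intracellular group, and its probes disagreed. They were about equally bright, with mean log2 levels that differed by 0.0045. The probe that stood for the gene read 94.5 against 98.9 and 98.4 against 80.7 (KO first), with log2 ratios of -0.07 and 0.29. The other probe, at chr11:69612453-69612512, read 65.5 against 105 on the first array and 79.1 against 134 on the second, with log2 ratios of -0.69 and -0.76. Its signal in the RNA labelled KO was not well above background on either array, so only a bound could be given there, with the RNA labelled KO at least 1.65-fold lower. The bound set the RNA labelled WT against the higher of the probe's own signal and the lowest signal counted as above background. The probe's own signal was the higher on both arrays, so the bound equalled the measured ratio. The level of Fgf11 was thus not settled by these arrays.

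The remaining 14 ligands had a brightest probe that was not well above background on both arrays in either RNA. Fgf6 was above background on the second array only, where it read 115 against 110, while it read 56.5 against 63.3 on the first. Fgf1, Fgf3, Fgf9, Fgf12, Fgf13, Fgf14, Fgf15, Fgf16, Fgf17, Fgf20, Fgf21, Fgf22 and Fgf23 and the inhibitor Spry3 were above background on neither array. The intensities of these 13 ligands and Spry3 lay between 57.1 and 75.9, and their mean log2 ratios between -0.05 and 0.21. The ratio changed sign between the arrays in 8 of these 14 genes. They held all measured members of the Fgf9 subfamily and all of the hormone-like ligands Fgf15, Fgf21 and Fgf23, so that nothing can be said about a difference in those genes at this signal.

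**Figure D2:**
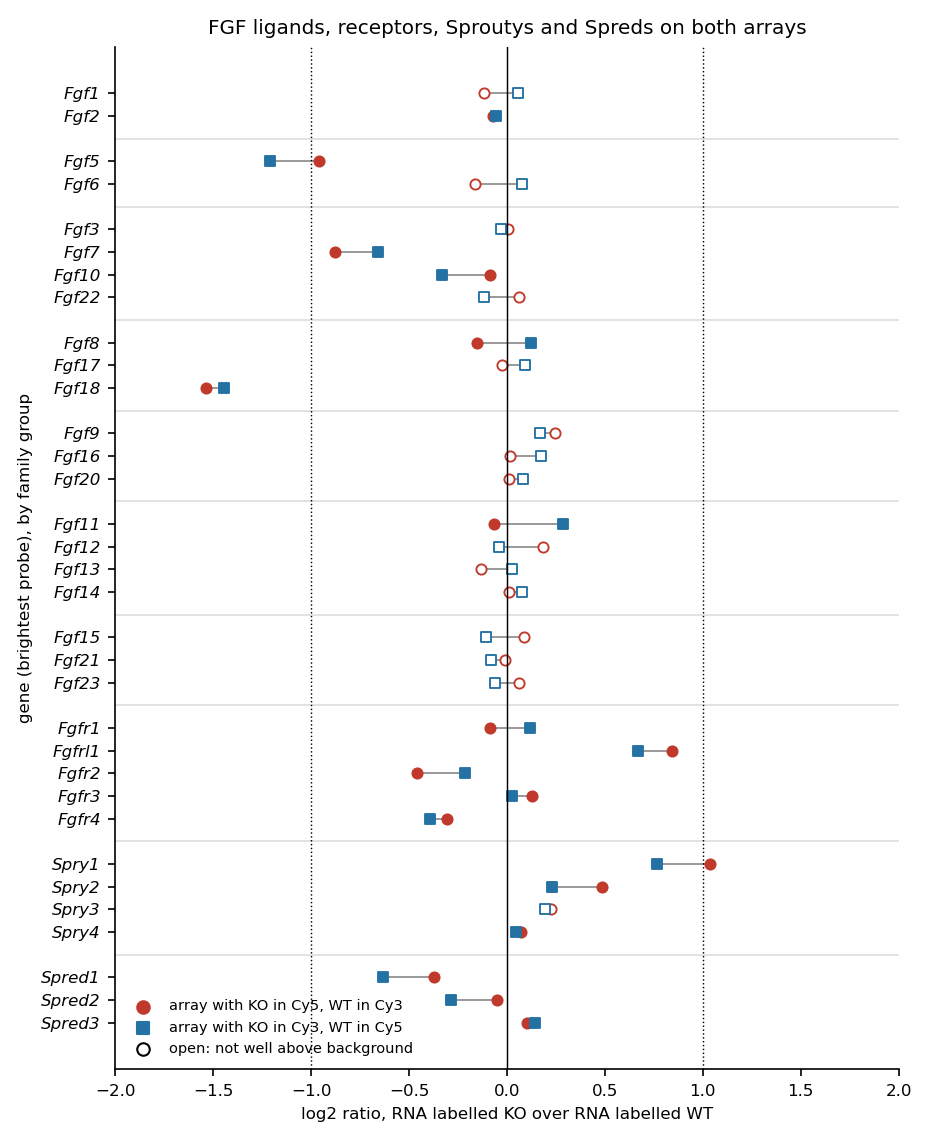
Log2 ratio of the RNA labelled KO over the RNA labelled WT for the brightest probe of each of the 33 genes, by family group, with circles for the array with KO in Cy5, squares for the dye-swapped array, open symbols for probes not well above background on both arrays, and dotted lines at the 2-fold threshold. Only Fgf18 lies beyond the threshold on both arrays.

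All 5 receptor genes were above background, and the signalling receptors differed little. Fgfr1, the main FGF receptor of fibroblasts, read 378 and 406 in the RNA labelled KO and 401 and 374 in the RNA labelled WT. Its log2 ratios of -0.09 and 0.12 had a mean of 0.02. The other probes of Fgfr1 gave means of -0.01, -0.12 and -0.20, so that all 4 lay within 0.21 of each other. The level of Fgfr1 therefore differed by little more than the hybridisation error by any of its probes.

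Fgfr2 and Fgfr4 were slightly lower in the RNA labelled KO by their brightest probes. Fgfr2, whose splice forms separate epithelial from mesenchymal ligands, had log2 ratios of -0.46 and -0.21 from its brightest probe. A probe of Fgfr2 spotted 10 times gave -0.22 and -0.26, with an SD over spots of 0.074 and 0.084. Fgfr4 had -0.30 and -0.39 from its brightest probe, which read 244 and 253 in the RNA labelled KO and 301 and 332 in the RNA labelled WT. Its dimmer probes gave means of 0.04 and -0.09, so that the probes of Fgfr4 did not show one direction. Fgfr3, a brake on cartilage growth, had log2 ratios of 0.13 and 0.03, and another probe gave a mean of 0.03.

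Fgfrl1 stood apart from the other receptors. It binds FGF ligands but lacks the tyrosine kinase domain. Its probe, at chr5:108946807-108946866, read 725 against 404 on the first array and 619 against 389 on the second, with the RNA labelled KO first. Both KO values were above both WT values, which also held for the brighter probe of Spry2, with a smaller difference. The log2 ratios of 0.84 and 0.67 gave a mean of 0.76 ± 0.12 (SD between the arrays), 1.69-fold higher, which was above the hybridisation error and short of the 2-fold call on each array. Fgfrl1 was read by this probe alone.

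The Sproutys differed from each other in size. Spry1, which binds Grb2 and restrains Ras signalling below the receptor, was bright at 2505 and 2184 in the RNA labelled KO and at 1220 and 1283 in the RNA labelled WT. Its values did not overlap between the RNAs, which also held for members that differed little, such as Fgf10. The log2 ratios were 1.04 and 0.77, with a mean of 0.90 ± 0.19 (SD between the arrays), so that Spry1 passed the 2-fold threshold on the first array only and was 1.87-fold higher on average. On the first array by itself Spry1 would have been called, which the second did not bear out. The probe lies at chr3:37835821-37835880.

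Spry2, another inhibitor of receptor tyrosine kinase signals, read 1244 and 1143 in the RNA labelled KO and 890 and 976 in the RNA labelled WT. The log2 ratios were 0.48 and 0.23, and a dimmer probe of Spry2 gave 0.19 and -0.10. The direction of Spry2 thus rested on the brighter probe. Spry4 had log2 ratios of 0.07 and 0.05 at 122 and 128 against 116 and 124, and did not differ beyond the hybridisation error. Spry1 was in this way the only Sprouty whose ratio exceeded 0.5 on both arrays, though no test between the Sproutys could be made.

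The Spreds, which bind the Ras regulator neurofibromin, had other ratios than Spry1. Spred1 read 1131 and 1089 in the RNA labelled KO and 1465 and 1691 in the RNA labelled WT, with log2 ratios of -0.37 and -0.63. Its other probes above background gave means of -0.39 and -0.08, and the dimmest of these was the one nearest to 0. Spred2 had log2 ratios of -0.05 and -0.29, and its other probe a mean of -0.05. Spred3 was above background in the RNA labelled KO only, at 80.0 and 81.8 against 74.6 and 74.1. Its measured ratio was 1.09-fold, with log2 ratios of 0.10 and 0.14. That size was near the SD of 0.13 between the arrays for a single probe. Spry1 and Spred1, both inhibitors of the same route, therefore had ratios of opposite sign on both arrays.

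**Figure D3:**
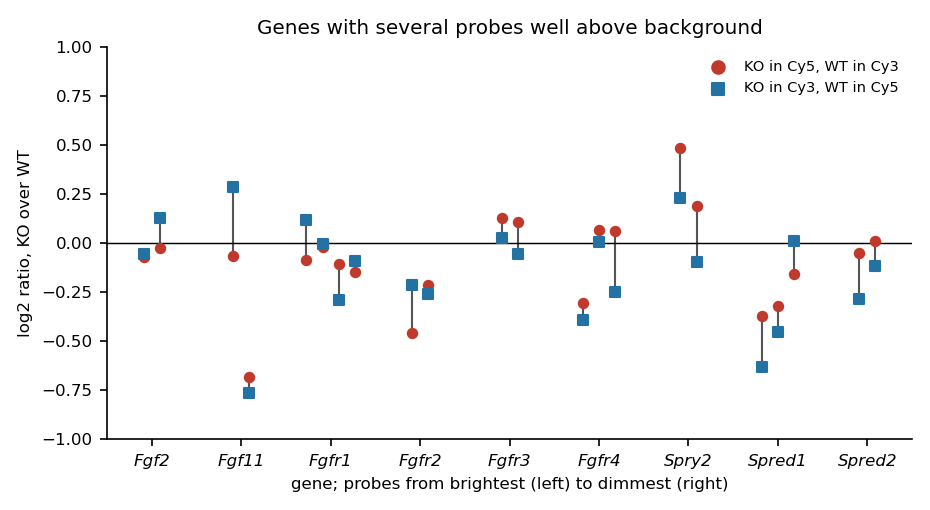
Log2 ratio of KO over WT for each probe of the 9 genes with several probes well above background, ordered from the brightest to the dimmest probe within a gene, with circles for the array with KO in Cy5 and squares for the dye-swapped array. The probes of Fgfr1, Fgfr2 and Fgfr3 lie close together, while the probes of Fgf11 are 0.84 apart on the log2 scale.

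For the 18 member genes that were above background in either RNA, the log2 ratio had a median of -0.04, against 0.00 for the 15877 genes of the array that met the same condition. The median size of the ratio was 0.27 for the members and 0.23 for all those genes. In 15 of the 18 genes the sign was the same on both arrays, and the share of all genes with the same sign was not analysed here. The median of the members thus lay near that of all genes, and the larger differences lay in single genes. The log2 ratios of the arrays over all probes had a correlation of 0.899, and the SD between the arrays was 0.12 over the 60 member probes.

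**Figure D4:**
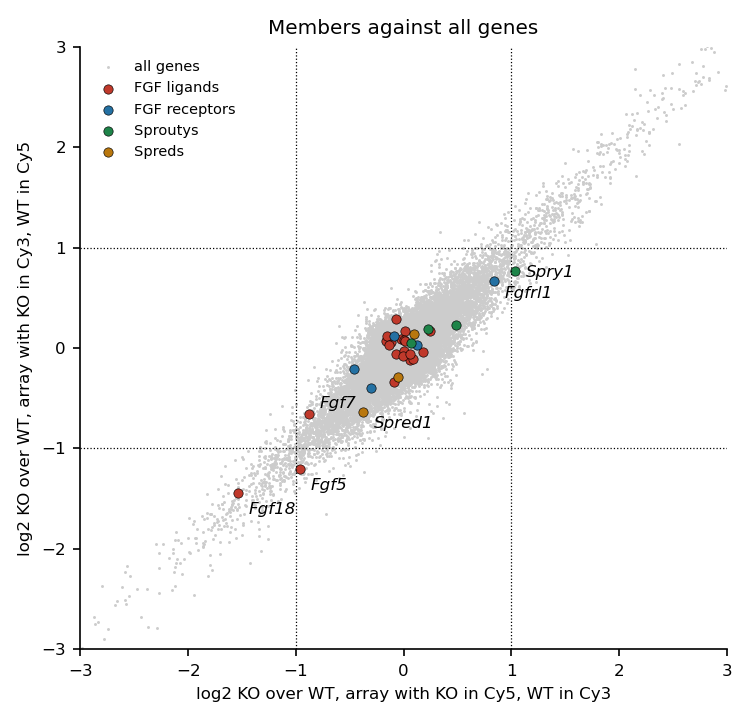
Log2 ratio of KO over WT on the array with KO in Cy5 (horizontal) against the dye-swapped array (vertical), for all 27579 genes in grey (axes cut at 3 in size) and the members in colour, with dotted lines at the 2-fold threshold. Most members lie in the central cloud, with Fgf18 and Fgf5 at the lower left and Spry1 and Fgfrl1 at the upper right.

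Genes that act beside and after the receptors were counted from lists of known pathway members. Of 10 co-receptors and ligand-binding proteins, 1 was called higher and none lower, where the rule called 1.7% and 1.5% of all genes. It was Flrt2, a membrane protein that binds FGF receptors and guidance receptors. Flrt2 read 4849 and 4493 in the RNA labelled KO against 1998 and 2019, with log2 ratios of 1.28 and 1.15. A dimmer probe of Flrt2 gave 0.78 and 0.58. Its relative Flrt3 had ratios of -0.44 and -0.84, and Il17rd (Sef), an inhibitor of FGF signalling at the membrane, had -0.44 and -0.74. The FGF inhibitors at the membrane and below it thus did not share a direction.

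In the relay from the receptor to ERK, 19 of 19 measured genes were above background and none was called, where the rule called 1.7% of all genes higher and 1.5% lower. The nearest was Araf, a Raf kinase, with a mean log2 ratio of 1.01, which fell just short of 1 on the first array, while a dimmer probe gave a mean of -0.09. At the smaller threshold of 0.5, 3 genes of the relay were higher, namely Araf, Plcg1 (0.60 and 0.60) and Nras (0.60 and 0.59), and none was lower, where 5.16% and 5.26% of all genes were. Dimmer probes of Plcg1 and Nras gave smaller ratios. Frs2, the docking protein of the FGF receptors, had ratios of -0.29 and -0.79 that differed by more between the arrays than most. Of 5 binding partners of the Sproutys and Spreds none was called, and their mean log2 ratios lay between -0.23 and 0.36.

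Of 12 measured genes that respond to FGF and ERK signalling, 2 were called higher and 3 lower, where the rule called 1.7% and 1.5% of all genes, though the list had been drawn up with earlier results of these data known. Dusp6, the ERK phosphatase that FGF signalling induces, read 8312 and 7823 in the RNA labelled KO and 17564 and 16725 in the RNA labelled WT, with log2 ratios of -1.08 and -1.10. Its relative Dusp4 went the other way, with 1032 and 866 against 220 and 226 and log2 ratios of 2.23 and 1.94. Ier3, an early response gene, was higher, with log2 ratios of 1.24 and 1.03. Egr1 and Fos, early response genes that many other stimuli also induce, were lower by far more, with mean log2 ratios of -3.95 and -3.73. The ETS factors Etv4 and Etv5, which FGF signalling also induces, had mean ratios of 0.06 and -0.21 and were not called. The response genes thus did not move one way, and the arrays give RNA levels only, with no measure of ERK activity.

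**Figure D5:**
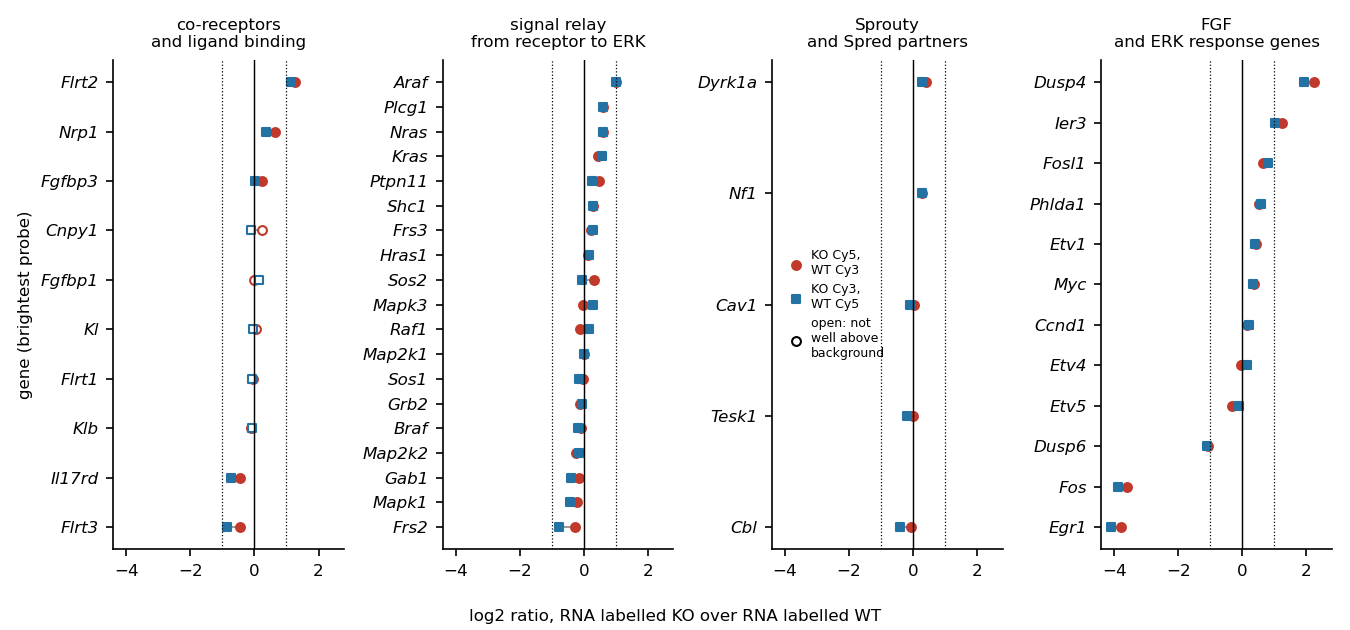
Log2 ratio of KO over WT for the brightest probe of genes beside and after the FGF receptors, in 4 lists, with circles for the array with KO in Cy5, squares for the dye-swapped array, open symbols for probes not well above background on both arrays, and dotted lines at the 2-fold threshold. Flrt2, Dusp4 and Ier3 lie beyond it on the high side and Dusp6, Fos and Egr1 on the low side.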

How the data were processed

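Per the file headers, the arrays were read with Agilent Feature Extraction 10.5.1.1, and per spot the authors deposited intensity in arbitrary units (mean signal and local background), with the software's log10 ratio of red over green. The authors also deposited log2 ratios of KO over WT per probe, made from the same processed signals. Of 45018 spots on each array, 1639 were controls. Control spots and spots with an outlier flag (390 and 378) were left out. The background step used normexp with an offset of 50 (limma 3.58.1, R 4.3.3), and ratios were normalised by loess within each array, and the sign of the dye-swapped array was turned. Levels are channel values after loess and Aquantile scaling. The arrays carry no counts, and their number limits the precision.

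Spots of a probe were averaged, a repeated probe was above background if the flag held in a share of at least 0.5 of its spots, and a gene was represented by its brightest probe on average. Every member was named, with values for those above background, and from the other lists every called gene. Members and lists were chosen with earlier results of these data known. Of the 60 member probes, 50 had an accession in the RefSeq table, each under the same symbol. Both arrays lay on the same slide and scan. The study's methods asked for a fold change of at least 2 together with a t-test p below 0.05. The rule here kept the 2-fold size but asked for it on each array, added the background flag and used no test.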

Additional observations from a re-analysis of the deposited data

How the results depend on the processing

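Fgf18 was called lower under every alternative tried except median centring and the methods' t-test after Benjamini-Hochberg adjustment, both of which left 0 genes lower. With median centring its log2 ratios were -0.81 and -2.18, so that the arrays moved apart while the mean stayed at -1.49. Spry1 likewise gave 1.88 and -0.02, and Fgfrl1 1.52 on the first array with a value near 0 on the second. The t-test, on 2 arrays taken to carry the same RNAs, called 1 gene lower at its own threshold. The number called lower was 2 with a normexp offset of 10, with no background subtraction and with the mean of both arrays at least 2-fold, Fgf5 being added each time, and 3 with the Feature Extraction ratios and the deposited log2 table, which added Fgf7. For Fgf5 and Fgf7, the value thus depended on how background was handled. At 0.5 on each array, chosen after seeing the data, 2 genes were higher and 3 lower. Without one array or the other, the number higher ranged from 0 to 1 (Spry1, without the array with KO in Cy3) and the number lower from 1 to 2 (Fgf5, without the array with KO in Cy5), and the median of the members above background from -0.08 to -0.01. That median was -0.14 with the Feature Extraction ratios and -0.15 with the deposited log2 table, against -0.04 in the main setting.

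Of 297 single gene values recomputed, 251 moved by less than the SD between the arrays, 41 moved further and grew in size and 5 moved further and shrank. Among members above background, 6 values changed sign, all of them of genes with a mean log2 ratio of at most 0.11 in size. Dim probes limit what can be said: in the scanner software's ratios Spry3 reached 1.61 and Fgf9 1.29, neither above background in either RNA, and the cause was not tested. No paired analysis was possible because there was 1 replicate of each genotype.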
